A study of Mus musculus with 8 samples.

Results

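The clustered protocadherin locus was taken as the 1.2 Mb of mouse chromosome 18 from 36900000 to 38100000 on the mm9 assembly. Its members are the hotspots, intervals enriched for sequence tags, that start inside it: 464 of the 820608 hotspots in 6 deposited lists. Hotspots that overlapped by at least 1 bp were merged, which gave 263 regions of 532751 in the whole series. The rule used coordinates and no measured value, though earlier results of these data were known when it was set. The lists come from chromatin immunoprecipitation sequencing of untreated cells of 3134, a murine mammary epithelial line, with 2 libraries for each of 3 antibodies, to Brg1 (monoclonal), CHD4 and Snf2h. The extraction text in the labels, however, describes digestion of nuclei with DNase I, another assay, so the steps of the immunoprecipitation are unknown here. All 6 libraries share the line and the absence of treatment, and the labels' text on induced dominant-negative remodelers concerns other lines. Both inputs of DNA were left out (not analysed here), so enrichment cannot be told apart from copy number or mappability at any region below.

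Clustered protocadherins are cadherin-like adhesion proteins of the cell surface, best known in neurons, where different cells choose different members and so acquire different surface identities. In the alpha and gamma clusters each variable exon has its own promoter and is spliced to constant exons shared by the cluster, while beta genes stand alone. Promoter choice involves DNA methylation, CTCF and cohesin-mediated looping to distant enhancers. SWI/SNF complexes are driven by the ATPase Brg1. CHD4 is the ATPase of NuRD, a complex that also holds histone deacetylases. Snf2h drives ISWI complexes, which space nucleosomes and assist CTCF binding. RefSeq's GRCm38.p6 table, a later assembly, lists 14 protein-coding alpha, 22 beta and 21 gamma genes, in that order. Zmat2 precedes the alpha cluster, Slc25a2 and Taf7 lie between beta and gamma, and Diaph1 and Hdac3 follow gamma. Because that assembly is not the one of the hotspots, no region was assigned to a gene. The name of the locus rests on its coordinates alone.

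All 3 remodelers had hotspots along the locus, and the tall ones were concentrated at its outer parts. The lists held 67 and 129 locus hotspots for Brg1 replicates 1 and 2, 27 and 161 for CHD4, and 20 and 60 for Snf2h. These counts follow the lengths of the lists, which run from 32310 to 293135 hotspots, with lowest Z scores of 2.00 in Brg1 replicate 2 and CHD4 replicate 2 and of 8.50 to 9.49 elsewhere. The number of tags behind each list is unknown. Counts were therefore set against the genome within the same list.

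Hotspots per Mb at the locus, divided by the genome value of the same list, came to 1.25 and 1.07 for the replicates of Brg1. For CHD4 the ratios were 1.46 and 1.18, whereas Snf2h gave 1.33 and 1.61. Brg1 averaged 1.16 ± 0.129, CHD4 averaged 1.32 ± 0.196 and Snf2h averaged 1.47 ± 0.199 (SD, n = 2 libraries each). All 6 libraries lay above 1. CHD4 overlapped both other antibodies in range, while both Snf2h libraries lay above both Brg1 libraries. That order was lost when every list was cut at a Z score of 9.49, where Snf2h replicate 1 lay below both Brg1 libraries. An exact permutation test over the 15 splits of 6 libraries into 3 pairs gave a one-sided p of 0.4 for a difference between antibodies, and 0.0667 by covered length in place of number. The second is the smallest p this design allows, so 0.05 cannot be reached and neither value shows that the antibodies were alike. The same test gave 0.2 in the taller 50% of each list and 0.6 with lists of equal length. The labels do not state separate cultures for the replicates, and the spread may be technical. Among 2132 consecutive windows of the same length, between 47.2% (Brg1 replicate 2) and 90.2% (Snf2h replicate 2) held fewer hotspots than the locus. The locus was thus not extreme in number in any list. The 1.2 Mb before it held more hotspots than the locus in all 6 lists (Brg1 87 and 175, CHD4 44 and 191, Snf2h 31 and 69). The 1.2 Mb after it held more in both Brg1 lists (76 and 170) and CHD4 replicate 2 (189). It held fewer in CHD4 replicate 1 (22) and both Snf2h lists (17 and 49).

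The excess over the genome was smaller among tall hotspots. When each list was shortened to the 32310 hotspots of greatest density, the length of the Snf2h replicate 1 list, Brg1 gave ratios of 0.864 and 1.06. CHD4 then gave 0.864 and 1.13, and Snf2h gave 1.33 (its full list) and 0.997. Height was read as the percentile of a hotspot's maximum tag density in its own list, since the authors' densities are not stated to be on a common scale. The median locus hotspot of Brg1 stood at percentiles 34.0 and 44.2 in replicates 1 and 2. That of CHD4 stood at 17.5 and 42.8, and that of Snf2h at 26.3 and 38.4. All 6 medians were below 50, the middle of a list. Such medians were not rare among windows of the same length with at least 10 hotspots. Of these, 39.0% and 50.6% had a lower median for Brg1 replicates 1 and 2. The shares were 10.7% and 43.9% for CHD4 and 24.4% and 48.7% for Snf2h. By Z score in place of density, the mean medians of Brg1, CHD4 and Snf2h were 50.7, 51.2 and 49.6, so the low rank held for density and not for the Z score.

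**Figure D1:**
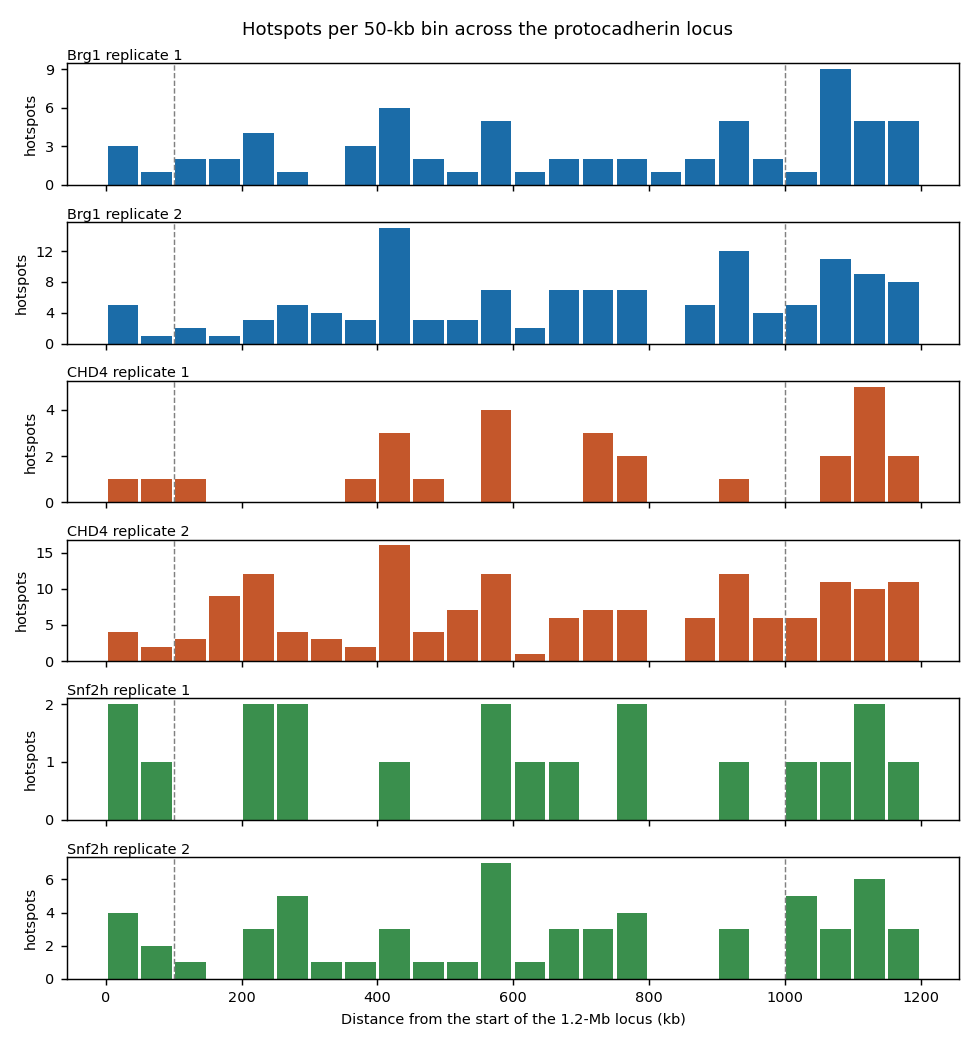
Hotspots in each of the 24 consecutive 50-kb bins of the locus (horizontal axis, distance from its start in kb) for each of the 6 libraries (vertical axes, number of hotspots, with a scale for each library), with dashed lines at the limits between ends and interior. Brg1 replicate 2 and CHD4 replicate 2 reach 15 and 16 hotspots in the ninth bin, and 1 bin, the 17th, is empty in all libraries but Brg1 replicate 1.

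In 50-kb bins, hotspots were unevenly spread in every library. By mean rank over the lists, the 3 fullest bins started at 37450000, 38000000 and 37300000, with 37, 37 and 44 hotspots of all lists. The bin at 37300000 was the fullest of Brg1 replicate 2, with 15 hotspots, and of CHD4 replicate 2, with 16, but held 1 in Snf2h replicate 1 and 3 in Snf2h replicate 2. The bin at 37450000 was the fullest of Snf2h replicate 2, with 7. The bin at 37700000 held 1 hotspot in all. CHD4 replicate 1 had none in 11 of 24 bins and Snf2h replicate 1 none in 10. The longest stretch with no hotspot in any list ran for 54.4 kb from 37181813 to 37236207, and the next for 50.3 kb from 36961940 to 37012243.

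Spearman's rho between bin counts, a description over 24 neighbouring bins that share local base composition and mappability, averaged 0.653 for libraries of one antibody and 0.520 for libraries of different antibodies. The Snf2h libraries were the most alike at 0.851, the Brg1 libraries reached 0.659 and the CHD4 libraries 0.449. Brg1 replicate 1 was closer to CHD4 replicate 2, at 0.728, than to its own replicate. The difference of 0.133 in favour of the same antibody had a one-sided p of 0.2 (exact permutation test over 15 splits, smallest possible p 0.0667), and without Snf2h replicate 1 it was -0.034. Snf2h libraries reached at most 0.647 with a library of another antibody.

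Most hotspots were tall at the outer parts of the locus and low between them. After seeing the profile, the first 0.1 Mb (36900000 to 36999999) and the last 0.2 Mb (37900000 to 38100000) were set apart as ends from the 0.9 Mb between them, called the interior. This division was chosen on the values, so it is described and not tested. In Brg1 replicate 1 the median percentile was 73.4 over 24 hotspots at the ends and 22.9 over 43 in the interior. In Brg1 replicate 2 it was 83.8 over 39 and 24.6 over 90. The CHD4 libraries gave 67.7 over 11 against 10.3 over 16, and 85.7 over 44 against 35.3 over 117. The Snf2h libraries gave 73.8 over 8 against 19.1 over 12, and 63.8 over 23 against 26.6 over 37. The ends were higher in 6 of 6 libraries, by a mean of 51.6 ± 7.87 percentile points (SD, n = 6 libraries), and by Z score percentile also in 6 of 6, by a mean of 29.5.

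**Figure D2:**
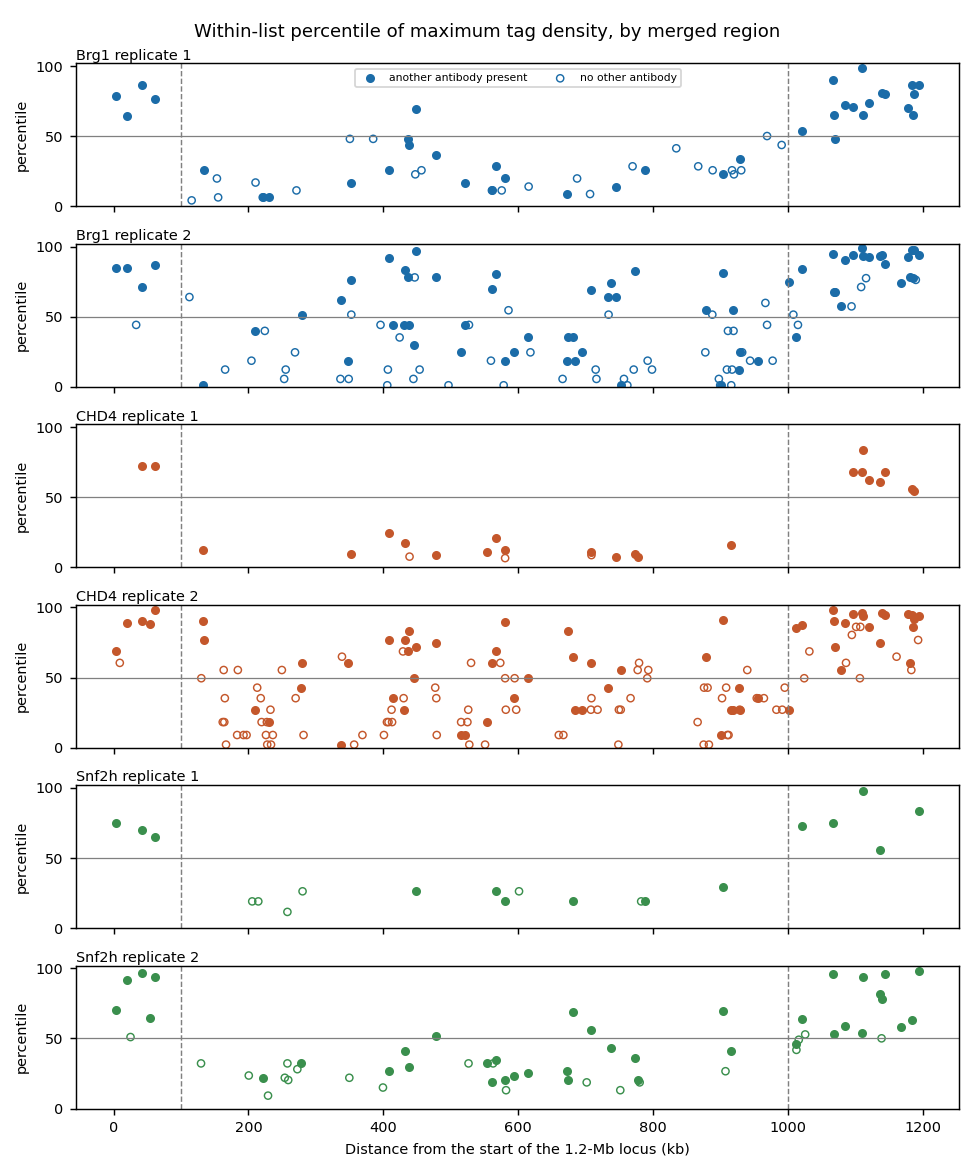
Each point is a merged region with a hotspot of the named library, placed by its distance from the start of the locus (kb) and by the highest within-list percentile of maximum tag density of its hotspots (0 to 100). Filled points are regions that also hold a hotspot of another antibody, and dashed lines mark the limits of ends and interior. Points above 50 crowd at both ends, and no interior hotspot of CHD4 replicate 1 or Snf2h replicate 1 exceeds percentile 29.5.

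Few interior hotspots were taller than the median of their list. Brg1 replicate 1 had 2 of 43. CHD4 replicate 1 had 0 of 16 and Snf2h replicate 1 had 0 of 12, counts of 0 that allow shares of up to 18.8% and 25.0%. Snf2h replicate 2 had 4 of 37. The longest lists, with the lowest thresholds, had more, 26 of 90 in Brg1 replicate 2 and 31 of 117 in CHD4 replicate 2. At the ends the corresponding counts were 23 of 24, 10 of 11, 8 of 8, 20 of 23, 36 of 39 and 41 of 44. The ends and the interior overlapped in height in the Brg1, CHD4 replicate 2 and Snf2h replicate 2 lists and were fully apart in CHD4 replicate 1 (lowest end 47.2, highest interior 24.4) and Snf2h replicate 1 (55.7 and 29.5). The interior was not free of tall hotspots. They reached percentile 96.7 in Brg1 replicate 2, 91.4 in CHD4 replicate 2, 69.3 in Brg1 replicate 1 and 69.4 in Snf2h replicate 2.

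With lists of equal length the interior was nearly empty of Brg1 and CHD4, a result partly fixed by its choice on low height. Among the 32310 tallest hotspots of each list, it held 0 and 2 Brg1 hotspots, 2 and 3 CHD4 hotspots and 2 hotspots of Snf2h replicate 2, while the ends, a shorter stretch, held 13 and 14, 11 and 14, and 13. Snf2h replicate 1 kept its 12 interior hotspots, since its list was not shortened. Densities relative to the genome were then 2.13 to 3.72 at the ends in the 6 lists, and 0 to 0.266 in the interior in the 5 lists other than Snf2h replicate 1, where it was 1.06.

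The interior stood below its surroundings in height, the trait by which it was set apart, so this comparison is no separate support. The 1.2 Mb before the locus had median percentiles of 70.0 to 80.4 in the 6 lists and the 1.2 Mb after it 50.1 to 61.0, against 10.3 to 35.3 in the interior. Other stretches of the genome were as low. Among consecutive 0.9-Mb windows with at least 10 hotspots, 2.16% (CHD4 replicate 1) to 33.7% (Snf2h replicate 2) had a lower median than the interior. In number, the full lists had between 0.991 (Brg1 replicate 2) and 1.32 (Snf2h replicate 2) times their genome density in the interior. At the ends the Brg1 replicates had ratios of 1.79 and 1.29. The CHD4 replicates had 2.37 and 1.29 there and those of Snf2h 2.13 and 2.47, above the interior in 6 of 6 libraries.

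**Figure D3:**
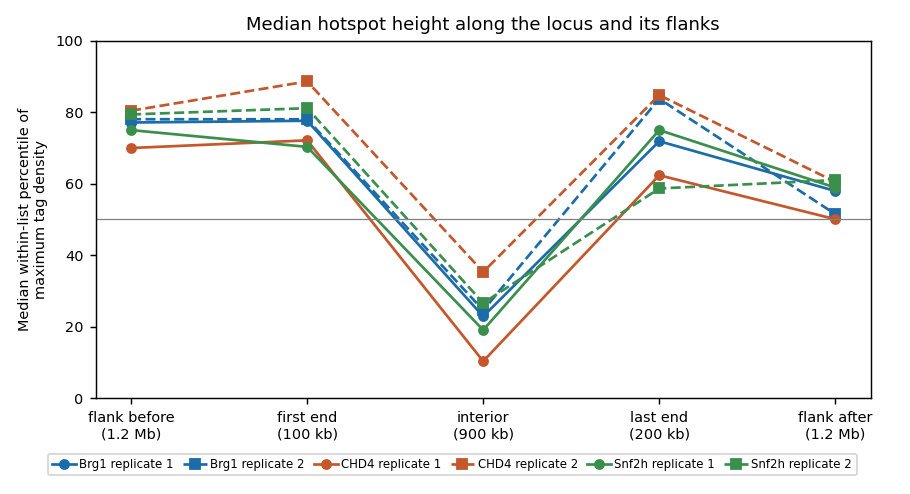
Median within-list percentile of maximum tag density (vertical axis, 0 to 100) of the hotspots in the flank before the locus, its first end, interior and last end, and the flank after it, with a line for each of the 6 libraries and a grey line at 50. All libraries drop in the interior, to between 10.3 and 35.3.

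Regions of all 3 antibodies were more frequent at the ends of the locus than in its interior, parts that were set apart by height. Tall hotspots are shared more often, so this contrast is partly fixed by that choice and is described only. By a hotspot of either library, 31 of 263 regions (11.8%, 95% Wilson interval 8.43% to 16.2%) held Brg1, CHD4 and Snf2h, against 7.42% of all merged regions. They made up 16 of 50 regions at the ends (32.0%, 20.8% to 45.8%) and 15 of 213 in the interior (7.04%, 4.31% to 11.3%), the latter close to the series. The 1.2 Mb before the locus, at 16.8%, exceeded the locus as a whole, and the 1.2 Mb after it had 8.54%. These intervals cover counting error only, and neighbouring regions are not independent. Brg1 alone was found in 75 regions (28.5% against 37.9%), CHD4 alone in 87 (33.1% against 34.3%) and Snf2h alone in 26 (9.89% against 6.25%). Brg1 with CHD4 made up 34 regions (12.9% against 11.4%). Brg1 with Snf2h made up 5 (1.90% against 1.49%), as did CHD4 with Snf2h (against 1.2%). Among the 32310 tallest hotspots of every list, 9 of 35 locus regions (25.7%) held all 3 antibodies against 28.3% of all regions. Among the taller 50% of each list the shares were 20.0% and 13.8%, and at a common Z score of 9.49 they were 17.6% and 14.7%. Without Snf2h replicate 2 the share was 5.33%, against 3.52% over the series, and without CHD4 replicate 2 it was 7.45%, against 7.03%. When both libraries of each antibody were required, it was 1.90% against 1.96%, with no excess at the locus.

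**Figure D4:**
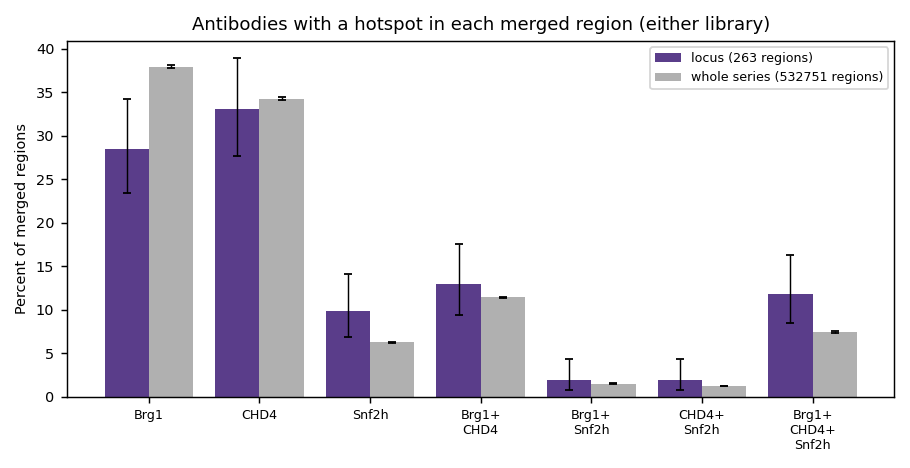
Percent of merged regions (vertical axis) with a hotspot of each combination of antibodies, by either library, for the 263 regions of the locus and the 532751 of the whole series, with 95% Wilson intervals. Regions of all 3 antibodies make up 11.8% at the locus and 7.42% in the series, and the interval of the locus lies above the series value.

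Sites found by both libraries of an antibody are firmer. There were 36 such Brg1 regions (13.7%, against 9.6% of all merged regions), 21 CHD4 regions (7.98% against 5.65%) and 13 Snf2h regions (4.94% against 3.39%). In all, 46 regions (17.5% against 11.5%) had both libraries of at least 1 antibody. Of the 50 regions at the ends, 21 did so, with 20 for Brg1, 10 for CHD4 and 8 for Snf2h. Of the 213 interior regions, 25 did so, with 16 for Brg1, 11 for CHD4 and 5 for Snf2h. In the interior 160 regions (75.1%) rested on 1 list, close to the 76.6% of the series, whereas 23 of 50 did so at the ends. Ends and interior were set apart by height, so these differences between them are no separate support.

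A hotspot in 3 or more lists occurred in 46 regions (17.5% against 10.7%), of which 22 lay at the ends. The share was 22.4% in the 1.2 Mb before the locus and 14.2% in the 1.2 Mb after it. The median spacing of the 46 regions, midpoint to midpoint, was 14.0 kb, against 2.01 kb for all 263 regions. They left a stretch of 219 kb from 37032288 to 37251409 without any such region. That stretch was not empty: it held 54 regions, 45 in 1 list and 9 in 2 lists, from 29 hotspots of CHD4 replicate 2, 13 and 9 of Brg1 replicates 2 and 1, and 9 and 4 of Snf2h replicates 2 and 1. CHD4 replicate 1 had none there. The medians were low, at percentile 18.3 for CHD4 replicate 2 and 11.4 for Brg1 replicate 1. A further stretch of 130 kb from 37673536 to 37803188 held 25 regions, 21 of them in 1 list.

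The share of locus hotspots that overlapped another antibody was above that of the whole list in both Brg1 libraries and CHD4 replicate 2 and below it in the other libraries. Over all lists of another antibody, the shares were 58.2% and 56.6% for Brg1 replicates 1 and 2 (49.5% and 40.8% over the whole lists), 85.2% and 46.6% for CHD4 (90.1% and 38.7%) and 70.0% and 65.0% for Snf2h (72.5% and 68.5%). The whole-list value lay inside the 95% Wilson interval of the locus in 4 of 6 libraries and below it in Brg1 replicate 2 and CHD4 replicate 2. Since tall hotspots are shared more often, each list was also weighted to the height deciles of its locus hotspots, a comparison chosen with the heights in view. The rest of each list then gave 41.8% and 40.7%, 76.8% and 37.2%, and 61.2% and 64.1%. The locus was above this in 6 of 6 libraries. The 95% Wilson intervals lay above it in the Brg1 libraries (46.3% to 69.3% and 48.0% to 64.8%) and in CHD4 replicate 2 (39.0% to 54.3%) and included it in CHD4 replicate 1 and both Snf2h libraries. Neither width nor local hotspot density was matched. Neighbouring hotspots are not independent, and an overlap counts in both antibodies' lists, so the 6 libraries are not separate observations. In every library the share was higher at the ends than in the interior. For Brg1 it was 95.8% against 37.2% in replicate 1 and 79.5% against 46.7% in replicate 2. This contrast was not matched for height and is partly fixed by the choice of ends and interior on height.

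**Figure D5:**
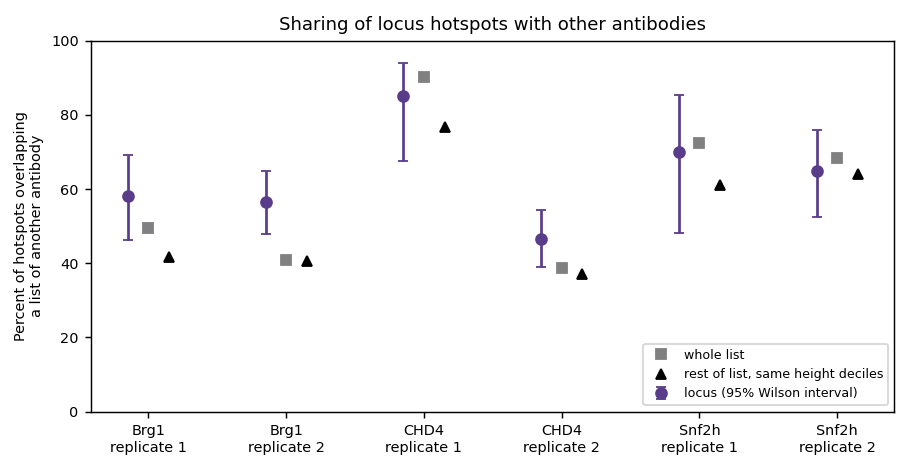
Percent of hotspots of each library that overlap a list of another antibody (vertical axis, 0 to 100): circles for the locus with 95% Wilson intervals, squares for the whole list, triangles for the rest of the list weighted to the same height deciles. Circles lie above triangles in all 6 libraries, by the most in Brg1 replicates 1 and 2.

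Replicates of an antibody were compared in the same way, with the same limits. Of the Brg1 replicate 1 hotspots at the locus 39 of 67 (58.2%) overlapped replicate 2, against 49.8% over the whole list. For CHD4 replicate 1 it was 22 of 27 (81.5% against 83.4%), and for Snf2h replicate 1 it was 13 of 20 (65.0% against 58.6%). These intervals, 46.3% to 69.3%, 63.3% to 91.8% and 43.3% to 81.9%, include the values of the whole lists, and those of CHD4 and Snf2h also include the values at matched height deciles, 66.4% and 45.5%. The matched value for Brg1 replicate 1, 41.5%, lies below its interval. In the other direction, 40 of 129 hotspots of Brg1 replicate 2 overlapped replicate 1 (31.0%, interval 23.7% to 39.4%), above both the whole list (20.3%) and the matched value (21.0%). For CHD4 replicate 2 it was 14.3% (9.71% to 20.5%) against 10.8% and 10.1%, and for Snf2h replicate 2 it was 21.7% (13.1% to 33.6%) against 23.0% and 19.4%.

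Of the locus regions, 5 held a hotspot of all 6 lists (1.9%, against 1.96% of all merged regions), 3 at the ends and 2 in the interior. The tallest of them lay at 38011416 to 38012636. Its maximum tag density, in the authors' units, was 41.6 and 38.1 for Snf2h replicates 1 and 2, 24.3 and 11.4 for those of CHD4 and 20.8 and 19.3 for those of Brg1, and it was the tallest locus hotspot of both CHD4 replicate 1 and Snf2h replicate 1. It ranked at percentiles 97.5 and 93.5 for Snf2h, 83.5 and 94.2 for CHD4 and 65.3 and 93.3 for Brg1. Snf2h replicate 1 had its highest locus value there, whereas Snf2h replicate 2 was higher elsewhere in the locus.

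Only 247 bp before it, the region from 38008816 to 38011168 was the tallest of both Brg1 libraries, with densities of 126 and 69.4 at percentiles 98.5 and 99.3. CHD4 stood at percentiles 67.7 and 95.7 in this region. Snf2h had a hotspot in replicate 2 alone, at percentile 53.8. In this region Brg1 ranked above Snf2h in replicate 2. In its neighbour Snf2h ranked above Brg1 in replicate 1, and in replicate 2 they stood level, at 93.5 and 93.3. Nothing in the labels pairs replicate numbers, and the lists differ in length and threshold. A percentile of one list is therefore not on the scale of another. The gap between the regions is narrower than the smallest hotspot of any list.

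The other outer regions in all 6 lists were near the start. The region from 36941987 to 36943601 had Brg1 at percentiles 86.6 and 71.2, CHD4 at 72.1 and 90.5 and Snf2h at 70.3 and 96.9. The region from 36961097 to 36961939 had Brg1 at 76.6 and 87.2, CHD4 at 72.1 and 98.0 and Snf2h at 64.9 and 93.8. In both, every library stood above the middle of its list, and Snf2h replicate 2 and CHD4 replicate 2 exceeded percentile 90. The second of them borders the stretch of 50.3 kb without a hotspot.

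The 2 interior regions in all 6 lists were low by density in most lists, but not both were low by Z score. At 37466788 to 37467676 the percentiles were 28.6 and 80.8 for Brg1, 20.7 and 68.7 for CHD4, while Snf2h stood at 26.3 and 34.8. At 37479681 to 37480326 they were 19.9 and 18.7 for Brg1, 12.03 and 89.5 for CHD4, while Snf2h had 19.1 and 20.3. Each was called in every library, but by density it stood below the middle in 4 of 6 and 5 of 6 lists. By Z score the first region stood above the list median in every library. It had 18.4 and 21.3 for Brg1 (medians 15.1 and 4.73), and 17.2 and 9.43 for CHD4 (13.3 and 3.98). For Snf2h it had 11.8 and 16.5 (11.2 and 12.9). The second region was above the median Z score in both Brg1 libraries and CHD4 replicate 2 and below it in the others. Both regions fell in the bin starting at 37450000.

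Of the remaining tallest hotspots, that of CHD4 replicate 2 lay at 37965180 to 37967302, with a density of 19.3 at percentile 98.5. Brg1 reached 89.9 and 94.5 there and Snf2h 75.0 and 95.7, while CHD4 replicate 1 had no hotspot. The tallest of Snf2h replicate 2 lay at 38093837 to 38095671, the last region of the locus, with 62.4 at percentile 98.3. Snf2h replicate 1 stood at 83.8 there, Brg1 at 86.9 and 94.3 and CHD4 replicate 2 at 94.0, again with no hotspot of CHD4 replicate 1. All of these tallest hotspots were at the last end.

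Regions replicated for 1 antibody and free of every other were few in number, and none stood above percentile 50.2. Their share was below that of the series for Brg1 and above it for CHD4 and Snf2h, on counts too small to compare. For Brg1 there were 2 (0.760% against 1.6% of all merged regions), at 37868679 to 37869421 (percentiles 50.2 and 44.2) and at 37816901 to 37817335 (25.8 and 12.3). For CHD4 there were 2 (0.760% against 0.149%), at 37480327 to 37480886 (6.52 and 49.5) and at 37608206 to 37609044 (8.67 and 35.3), the first directly beside the interior region of all 6 lists that ends at 37480326. For Snf2h there was 1 (0.380% against 0.133%), at 37157398 to 37158099 (11.6 and 32.2). All 5 lay in the interior.

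Brg1 and CHD4 shared 3 regions with both libraries of each and no Snf2h hotspot (1.14% against 0.61%), all at the last end. At 37995094 to 37996917 Brg1 stood at percentiles 71.1 and 93.7 and CHD4 at 67.7 and 95.3. At 38087213 to 38088092 the values were 80.5 and 97.9 for Brg1 and 54.5 and 91.8 for CHD4, and at 38019956 to 38021158 they were 74.1 and 92.8 and 62.4 and 86.2. Every one of the 4 libraries was above the middle of its list in all 3. No region had both libraries of Brg1 and Snf2h without CHD4, or of CHD4 and Snf2h without Brg1. Median width at the locus was 313 bp for regions in 1 list, 570.5 bp in 2, 748 bp in 3, 986 bp in 4, 930 bp in 5 and 889 bp in 6 lists. The 5 regions in 6 lists ran from 646 to 1615 bp, and the median of such regions in the series was 1500 bp.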

How the data were processed

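Chromatin immunoprecipitation sequencing of untreated 3134 cells gave 2 libraries per antibody. Titles of the samples gave groups and replicate numbers. Reads were processed with CASAVA 1.6 on mm9, per the submitters' processing notes. The authors listed hotspots per library. Their caller, thresholds and use of inputs: not given in the sources used here. Per the file headers, each deposited hotspot has a maximum and an average density of tags (a signal of unstated scaling), a Z score and a p-value. The deposited p-value was not used.

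Positions were read as closed, 1-based intervals. Percentiles are mid-ranks within a list. Genome length is the span from the lowest start to the highest end per chromosome. No deposited hotspot crossed a limit of the locus, and 0 columns of other samples were present. Python 3.11.15, numpy 2.4.6, pandas 2.3.3, scipy 1.17.1 and matplotlib 3.10.9 were used. Density, grouping and merging code was tested on simulated data. The single regions described are those in all 6 lists, the tallest of each list, and up to 3 per antibody or pair with both libraries and no other antibody; the fullest 3 bins and the longest gap were taken likewise. The locus, rules and lists were chosen with earlier results of these data known. Sequence of the locus and annotation on mm9 were not used here.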

Additional observations from a re-analysis of the deposited data

How the results depend on the processing

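Relative density moved by more than the spread between libraries with the taller 50% of each list (0.969 for Brg1, 1.10 for CHD4, 1.18 for Snf2h), with lists of equal length (0.964, 0.997 and 1.16) and, for Brg1, at a common Z score of 9.49 (1.37). Median height percentile for Brg1, CHD4 and Snf2h was 50.6, 40.7 and 40.5 in the taller 50%. With equal lengths it was 40.4, 50.6 and 40.5, and at the common Z score 32.6, 37.8 and 42.7. By average density it was 39.7, 33.8 and 40.8. By Z score it was 50.7, 51.2 and 49.6. The share of regions with all 3 antibodies was 20.0% in the taller 50%, 25.7% with equal lengths, 17.6% at the common Z score and 1.90% when both libraries of each were required. Over the series these were 13.8%, 28.3%, 14.7% and 1.96%. When 1 library was left out the share ran from 5.33% to 12.7%. The grouping of bin profiles ran from -0.034 to 0.257 when 1 library was left out, and it was reversed at -0.034 without Snf2h replicate 1. Ends minus interior was 28.5 percentile points in the taller 50% (4 of 4 lists that had hotspots in both parts), 39.9 with equal lengths (4 of 5) and 29.5 by Z score. Ends 1 bin shorter or longer gave 51.5 and 49.9, and leaving out 1 library 50.1 to 54.5. These alternatives for the ends were chosen after seeing the data.

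The replicate block, with antibody names permuted within each replicate number, gave an exact permutation p = 0.5 for the difference between antibodies in relative density (36 assignments, smallest possible p = 0.167), against 0.4 without it. Nothing in the labels pairs the numbers. Deviations of same-numbered bin profiles correlated at 0.255, 0.289 and -0.203. Without the block, the p of the exact permutation test ran from 0.333 to 0.733 with 1 library left out. It was 0.0667 by covered length, 0.2 in the taller 50% and 0.6 with equal lengths. Among these settings it was largest at the common Z score, where Snf2h replicate 1 lay below both Brg1 libraries in relative density. With equal lengths Snf2h replicate 2 lay below Brg1 replicate 2. Of the regions in all 6 lists, 3 were left in the taller 50%, 2 at the common Z score and 0 with equal lengths. The cause of these changes was not tested. The number of tags per list is unknown, and lists of 20 and 27 locus hotspots limit every share.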
